A study of Homo sapiens with 11 samples.

Results

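The 41 genes described here encode the machinery that copies DNA in S phase and supplies its building blocks. They were taken by symbol from the count table, where all 41 of the 41 symbols were found among 28152, and all 41 passed the filter on low counts. They fall into 7 roles: licensing factors (5 genes), the MCM2 to MCM7 helicase core (6), helicase activation (6), polymerases and primase (6), clamp, loader and strand processing (10), deoxynucleotide supply (5) and histone chaperones (3). RNA came from tumours of cells that the labels name BT-474, an established HR+/Her2+ human breast tumour line, grown in the mammary fat pad of female athymic nude mice. Every animal, in both groups, carried a slow-release β-estradiol pellet (0.72 mg, 90 days) and received cells in 50% Matrigel, and the label gives day 33 for each library. The 6 vehicle animals were given mannitol in water under the skin every 4 days. The 5 treated animals were given Evexomostat (SDX-7320), an inhibitor of methionine aminopeptidase 2 (MetAP2), at 12 mpk on the same schedule. Each library is 1 tumour from 1 established line, so p-values measure the spread between tumours, and the animals keep their own stroma, vessels and innate immune cells.

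In G1, the origin recognition complex, CDC6 and CDT1 load the MCM helicase onto origins, and geminin (GMNN) blocks further loading once S phase begins. MCM10, CDC45 and the GINS complex turn the loaded helicase on, primase and the polymerases copy the strands, and PCNA, placed by the RFC clamp loader, tethers the polymerases. Ribonucleotide reductase and thymidylate synthase keep deoxynucleotides in supply, and transcription of much of this set is known to follow the E2F factors as cells pass from G1 into S phase.

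Library totals ran from 22808033 to 39249329 counts, and the 41 genes had between 297 and 12810 counts in any library. Levels are given as CPM, the counts of a gene relative to all tested genes of its library after TMM scaling, which adjusts for differences in composition. In bulk tumour RNA, fewer cycling cells and less of a transcript per cycling cell cannot be told apart. Several markers of the labelled cell type were low and others were not: ERBB2 averaged 53.7 RPM (counts relative to the whole library, without TMM), ESR1 0.285, PGR 0.0655, EPCAM 3.03, CDH1 0.456 and KRT19 0.803 RPM, whereas the luminal keratins KRT8 and KRT18 averaged 332 and 149 RPM and the mesenchymal marker VIM averaged 1187 RPM. Summed skeletal muscle markers (12 genes, 8 of them tested) ranged from 6.40 to 22.9 RPM under vehicle and from 8.76 to 582 RPM under evexomostat, the highest in replicate 005. Summed fibroblast markers (6 genes) ranged from 73.2 to 354 and from 151 to 379 RPM, summed endothelial markers (6 genes) from 11.3 to 24.1 and from 11.5 to 16.3 RPM, and summed leukocyte markers (7 genes, CD3E and MS4A1 at 0) from 35.6 to 88.1 and from 58.4 to 68.5 RPM. How mouse reads were handled is not given in the sources used here, and the part of host cells in the results was not tested.

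With all 11 tumours, none of the 41 replication genes passed edgeR's quasi-likelihood test of treatment (threshold 0.05 after adjustment), against 0.606% of the 16653 genes tested. Before adjustment 3 had a p under 0.05, MCM10, POLA2 and UHRF1, all with higher means under evexomostat, against 13.4% of all tested genes and 4.82% counted in that direction. Of the 41 genes 26 had a log2 fold change above 0 and 15 below, with a median of 0.02 and a range from -0.27 (RRM1) to 0.57 (UHRF1). Over all tested genes the median was -0.04 and 44.6% were above 0. The groups overlapped in CPM in all 41 genes, while they did not overlap in 2.97% of all tested genes. The 95% intervals of the log2 fold changes reached from -1.24 (RPA3) to 0.91 (UHRF1), and 26 of the 41 lay within a 1.5-fold change in either direction.

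A pair of libraries stood apart from their groups in these genes. Of all libraries, vehicle replicate 001 had the lowest TMM factor (0.860) and evexomostat replicate 003 the highest (1.08). A low factor raises every CPM value of its library and a high factor lowers it. The part of this scaling in their departures was not tested. The matching shares over all tested genes are not given here, so the counts of highest and lowest libraries are not particular to this set. Vehicle replicate 001 was the highest of the 6 vehicle libraries in 23 genes and the lowest in 7, and evexomostat replicate 003 was the lowest of the 5 evexomostat libraries in 32 genes and the highest in 2 (PCNA and POLE). Without vehicle replicate 001, 2 of the 41 genes passed the threshold, POLA2 and RPA3, both higher under evexomostat, against 5.22% of all genes tested in that comparison and 1.98% in that direction. There 11 of the 41 had an unadjusted p under 0.05, near the 24.4% of all genes tested. The median of the 41 log2 fold changes was then 0.14, with 33 above 0, against a median of -0.00245 over all tested genes. Both libraries were singled out because they were extreme in these genes, mostly high under vehicle and low under evexomostat. Leaving them out therefore moves most fold changes up by construction, and the values without them are given as a description that supports no direction. Without vehicle replicate 001 and evexomostat replicate 003 together, a choice made after the values were seen, 7 of the 41 genes passed (MCM10, CDC45, POLA2, PRIM1, RFC4, RPA3 and UHRF1), all higher under evexomostat, against 3.9% of all genes tested and 1.34% in that direction, and 16 had an unadjusted p under 0.05, against 23.1%. The median was then 0.20, with 36 of 41 above 0, against -0.02 over all tested genes. No gene of the 41 was lower past the threshold in any of these comparisons. Without evexomostat replicate 003 alone, none of the 41 passed and 3 had an unadjusted p under 0.05, against 0.274% and 12.3% of all genes tested.

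**Figure D1:**
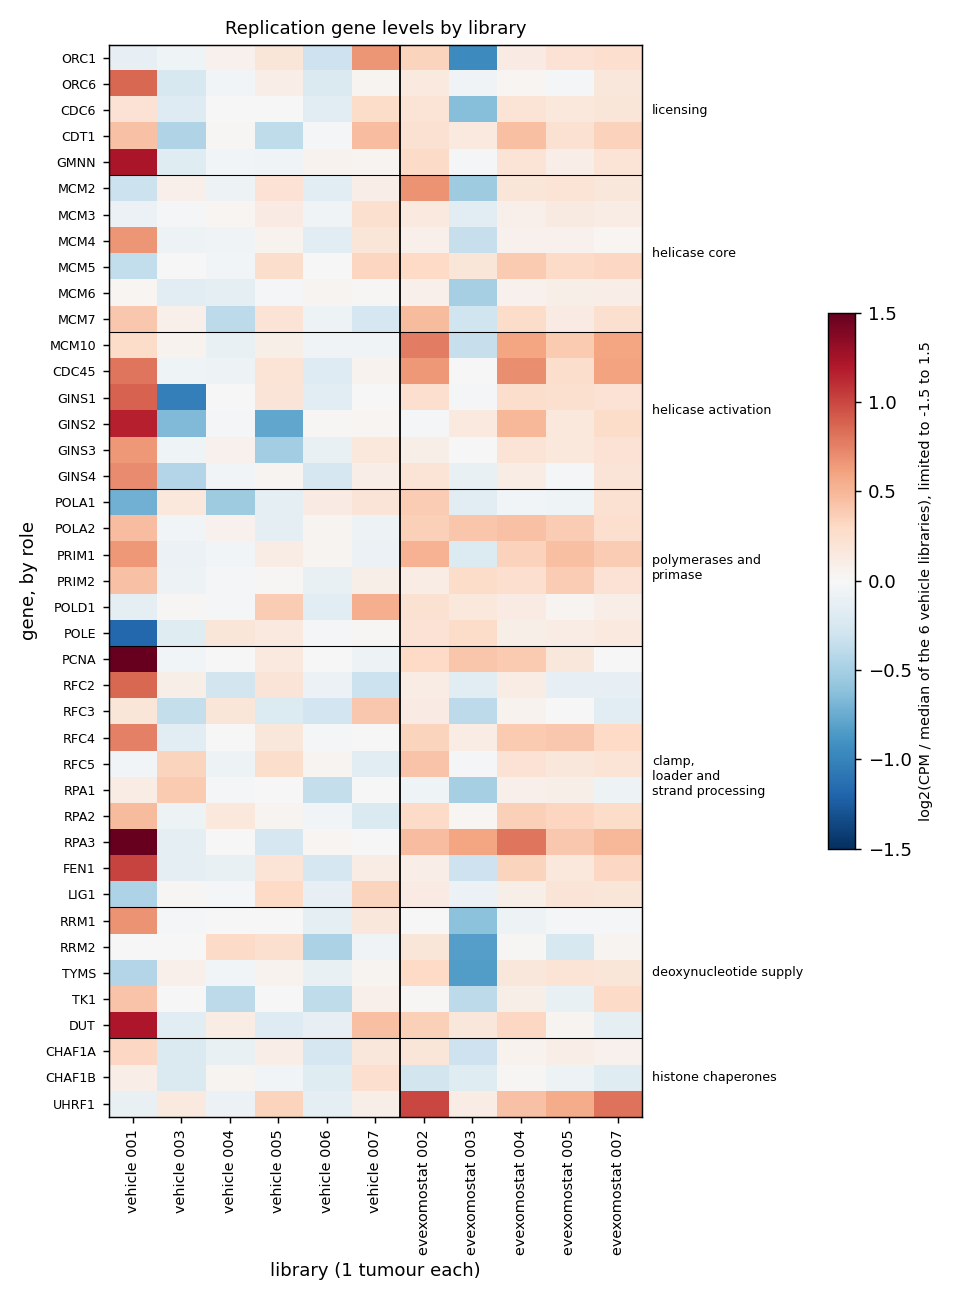
Log2 ratio of each gene's CPM to the median of the 6 vehicle libraries, with genes in rows by role and libraries in columns (vehicle left of the line, evexomostat right); colours are limited to 1.5 in either direction. Vehicle 001 is highest of its group in 23 of 41 genes, and evexomostat 003 is lowest of its group in 32 of 41.

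Promoter sequences are shown for 4 members because the set is known for E2F control and these 4 span its behaviour in the data: UHRF1 had the smallest p-value, POLA2 passed without vehicle replicate 001, MCM6 lay far below its group in evexomostat replicate 003, and PCNA far above its group in vehicle replicate 001. The sequences are the 250 bases before the RefSeq start site in build GRCh38.p14, 5′ to 3′ on the gene's strand, at chr19:4909251-4909500 (plus strand) for UHRF1, chr11:65261712-65261961 (plus strand) for POLA2, chr2:135876444-135876693 (minus strand) for MCM6 and chr20:5126623-5126872 (minus strand) for PCNA. Capitals mark matches to TTTCCCGC, TTTGGCGC or TTTCGCGC, forms of the E2F site, on either strand.
UHRF1: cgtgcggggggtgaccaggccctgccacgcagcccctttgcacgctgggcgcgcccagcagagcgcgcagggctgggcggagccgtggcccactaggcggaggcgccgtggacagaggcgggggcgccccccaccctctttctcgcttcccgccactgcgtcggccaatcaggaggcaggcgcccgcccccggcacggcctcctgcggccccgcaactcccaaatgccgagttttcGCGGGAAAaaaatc
POLA2: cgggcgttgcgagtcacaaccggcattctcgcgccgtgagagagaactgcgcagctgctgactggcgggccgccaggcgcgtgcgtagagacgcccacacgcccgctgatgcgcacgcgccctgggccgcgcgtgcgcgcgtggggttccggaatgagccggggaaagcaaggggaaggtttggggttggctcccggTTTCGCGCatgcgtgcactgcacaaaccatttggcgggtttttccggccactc
MCM6: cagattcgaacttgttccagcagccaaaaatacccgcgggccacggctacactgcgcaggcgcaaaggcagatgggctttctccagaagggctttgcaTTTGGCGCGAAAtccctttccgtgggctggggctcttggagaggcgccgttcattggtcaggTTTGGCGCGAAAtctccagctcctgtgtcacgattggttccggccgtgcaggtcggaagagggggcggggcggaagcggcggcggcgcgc
PCNA: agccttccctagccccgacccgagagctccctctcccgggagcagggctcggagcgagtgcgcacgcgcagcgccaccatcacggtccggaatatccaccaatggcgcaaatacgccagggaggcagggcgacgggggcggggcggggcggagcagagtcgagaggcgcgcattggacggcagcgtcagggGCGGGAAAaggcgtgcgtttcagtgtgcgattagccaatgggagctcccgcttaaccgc
In MCM6 both stretches of capitals hold overlapping matches to TTTGGCGC and, on the other strand, TTTCGCGC.

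Of the 41 genes 36 were matched in the RefSeq promoter table by symbol. Within the window from 250 bases before to 50 after the start site, 17 of the 36 (47.2%) held at least 1 of the 3 letter strings on either strand, against 4.30% of 12326 tested genes with a window of that length and 2.79% of all 27305 such windows. They were spread over the roles, with 4 in the helicase core (MCM2, MCM3, MCM6 and MCM7) and 3 each in helicase activation, in polymerases and primase, and in clamp, loader and strand processing. The CCAAT string, on either strand, was present in 20 of 36 (55.6%), against 36.1% of tested genes. The string TTTGAA, the core of the CHR element found in many mitotic genes, was present in 1 of 36, RRM1 (2.78%), against 10.1% of tested genes. Of the 7 genes that passed without both libraries, POLA2 and UHRF1 held an E2F-type string, while MCM10, CDC45, PRIM1 and RFC4 held no E2F-type string in this window. The CCAAT string was present in MCM10, CDC45, PRIM1 and UHRF1. MCM4, MCM5, GINS4, RPA2 and RPA3 were not matched. The RefSeq start site need not be the one used in these tumours, and a match is only a stretch of letters.

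In each role the genes described were the one with the smallest p-value and the most abundant by mean RPM, and RPA3, PCNA, TYMS, CDC45, PRIM1, RFC4, POLE, GMNN and ORC1 were added after their values were seen. Among the licensing factors, CDT1, the MCM loader that geminin restrains, had the smallest p-value and the highest mean RPM. CDT1 was at 69.7, 37.5, 52.0, 39.5, 51.0 and 71.2 CPM in the 6 vehicle libraries (replicates 001, 003, 004, 005, 006 and 007) and at 60.4, 56.9, 70.6, 60.1 and 65.5 CPM in the 5 evexomostat libraries (002, 003, 004, 005 and 007). The groups overlapped, since vehicle replicates 001 and 007 were as high as the treated tumours, and the log2 fold change was 0.23 (standard error 0.17, adjusted p 0.635 by edgeR). GMNN, which holds CDT1 back, was at 70.8, 26.7, 29.2, 29.2, 31.2 and 31.1 CPM under vehicle and 36.8, 29.7, 34.7, 32.3 and 34.8 CPM under evexomostat. Vehicle replicate 001 was far above every other tumour for GMNN, and the log2 fold change was -0.11 (standard error 0.23, adjusted p 0.898 by edgeR) with it and 0.20 (standard error 0.09, adjusted p 0.207 by edgeR) without it. ORC1, the ATPase subunit of the origin recognition complex, and CDC6 had their lowest values of all 11 tumours in evexomostat replicate 003, at 19.9 and 25.6 CPM, against 42.3 to 48.6 and 44.5 to 46.1 CPM in the other evexomostat tumours. The log2 fold change of ORC1 was -0.04 (standard error 0.23, adjusted p 0.967 by edgeR). The median log2 fold change of the 5 licensing factors was -0.04, with 2 above 0, and 0.13, with 4 above 0, without vehicle replicate 001. With scaling by library totals only, all 5 were above 0, with a median of 0.05. That scaling moved values up over all tested genes too, to a median of 0.06 with 58.5% above 0.

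In the helicase core, the ring of MCM2 to MCM7 that unwinds DNA at the fork, all 6 subunits were lowest in evexomostat replicate 003 within the treated group. MCM5 had the smallest p-value, with 65.3, 83.6, 81.8, 101, 84.5 and 105 CPM under vehicle and 103, 95.4, 111, 103 and 104 CPM under evexomostat. All 5 evexomostat values lay above 4 of the 6 vehicle values, with vehicle replicates 005 and 007 reaching into the treated range, and the log2 fold change was 0.25 (standard error 0.13, adjusted p 0.433 by edgeR). MCM4, the most abundant subunit, was at 526, 316, 322, 345, 298 and 378 CPM under vehicle and 352, 262, 349.7, 349 and 340.3 CPM under evexomostat. Vehicle replicate 001 was the highest and evexomostat replicate 003 the lowest of all tumours for MCM4, and the log2 fold change was -0.14 (standard error 0.16, adjusted p 0.784 by edgeR). MCM2 was highest in evexomostat replicate 002 at 179 CPM and lowest in evexomostat replicate 003 at 77.3 CPM, a wider range within treatment than the 89.4 to 131 CPM under vehicle. MCM6 was at 125 to 127 CPM in the other treated tumours, against 84.2 CPM in evexomostat replicate 003.

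Levels per kilobase allow subunits to be compared, using merged exon lengths of protein-coding transcripts in GENCODE release 29. Outside vehicle replicate 001, MCM4 was the highest of the ring at 76.4 ± 7.07 (SD, n = 5) CPM per kb under vehicle and 76.1 ± 8.88 (SD, n = 5) under evexomostat. MCM7 followed at 56.3 ± 9.37 (SD, n = 5) and 67.1 ± 12.5 (SD, n = 5), and MCM5 was the lowest at 25.8 ± 3.07 (SD, n = 5) and 29.2 ± 1.53 (SD, n = 5) CPM per kb. MCM2 and MCM6, the next subunits up, were at 31.8 ± 3.31 (SD, n = 5) and 30.7 ± 1.97 (SD, n = 5) CPM per kb under vehicle and did not differ beyond their spread. MCM4 relative to the mean of the other 5 subunits was 3.18 in vehicle replicate 001, against 1.92 to 2.28 in the other vehicle tumours and 1.71 to 1.97 in the evexomostat tumours.

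The helicase activators were the only role in which vehicle replicate 001 was the highest vehicle library for every gene, 6 of 6. MCM10, which helps start the helicase and recruits polymerase alpha, was at 30.2, 25.8, 23.0, 26.3, 23.9 and 23.9 CPM under vehicle and 42.2, 19.6, 37.5, 32.6 and 37.5 CPM under evexomostat. In 4 evexomostat tumours MCM10 lay above every vehicle tumour and in replicate 003 below every one. Its log2 fold change was 0.41 (standard error 0.17, adjusted p 0.319 by edgeR) with all tumours and 0.60 (standard error 0.10, adjusted p 0.0157 by edgeR) without both libraries, which hold its highest vehicle and its lowest treated value. CDC45, which joins MCM and GINS in the active helicase, was at 38.3, 21.1, 20.8, 25.4, 19.2 and 22.9 CPM under vehicle and 34.6, 22.1, 35.7, 26.3 and 33.3 CPM under evexomostat. The log2 fold change of CDC45 was 0.31 (standard error 0.19, adjusted p 0.545 by edgeR) with all tumours and 0.57 (standard error 0.12, adjusted p 0.0331 by edgeR) without both libraries, of which vehicle replicate 001 was its highest value and evexomostat replicate 003 its lowest treated value. GINS1, GINS2, GINS3 and GINS4, the small subunits of the GINS complex, had log2 fold changes of 0.11, 0.12, 0.07 and 0.01 with all tumours and 0.34, 0.47, 0.22 and 0.19 without vehicle replicate 001, with edgeR adjusted p-values from 0.129 to 0.378 in the latter. GINS1 and GINS2 also varied among the other vehicle tumours, from 13.0 to 30.3 and from 14.0 to 24.6 CPM.

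Among polymerases and primase, the noncatalytic B subunit of polymerase alpha, POLA2, was at 39.6, 27.8, 30.0, 26.2, 29.6 and 27.2 CPM under vehicle and 36.7, 38.4, 38.9, 37.4 and 34.1 CPM under evexomostat. Every evexomostat tumour exceeded 5 of the 6 vehicle tumours, and vehicle replicate 001 alone was higher than all of them. The log2 fold change of POLA2 was 0.30 (standard error 0.12, adjusted p 0.304 by edgeR) with all tumours and 0.40 (standard error 0.08, adjusted p 0.0223 by edgeR) without vehicle replicate 001. POLD1, the catalytic subunit of polymerase delta and the most abundant gene of this role by mean RPM, was at 79.5, 87.8, 86.1, 114, 77.4 and 127 CPM under vehicle and 102, 97.2, 94.7, 89.1 and 93.4 CPM under evexomostat. The evexomostat tumours lay inside the vehicle range, and the log2 fold change was -0.00095 (standard error 0.14, adjusted p 0.998 by edgeR), with an interval from -0.31 to 0.31. POLE, the catalytic subunit of polymerase epsilon and the gene with the longest merged exons of the set, went the other way in vehicle replicate 001: it was at 37.6, 75.4, 96.5, 94.4, 84.3 and 86.4 CPM under vehicle and 98.9, 103, 90.6, 92.1 and 94.3 CPM under evexomostat. Its log2 fold change was 0.28 (standard error 0.20, adjusted p 0.61 by edgeR) and 0.14 (standard error 0.09, adjusted p 0.372 by edgeR) without that library. PRIM1, the catalytic subunit of primase, was at 39.8, 23.9, 24.6, 27.5, 26.2 and 23.9 CPM under vehicle and 36.4, 22.1, 32.2, 34.8 and 33.2 CPM under evexomostat. Its log2 fold change was 0.20 (standard error 0.17, adjusted p 0.675 by edgeR) with all tumours and 0.43 (standard error 0.09, adjusted p 0.0287 by edgeR) without both libraries. Those libraries hold the highest vehicle and the lowest treated value of PRIM1, so leaving them out raises its fold change by construction. PRIM2, its large subunit, did not overlap between groups once vehicle replicate 001 was left out, like POLA2 and RPA3 (3 of 41, against 8.33% of all tested genes), with an edgeR adjusted p of 0.119. As a description, the mean log2 CPM of the 6 genes of this role ran from 5.19 to 5.39 under vehicle and from 5.40 to 5.57 under evexomostat, so that these means did not overlap between the groups, by a narrow gap. It was picked out for this after the values were seen, and the means of the other 6 roles and of all 41 genes overlapped.

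**Figure D2:**
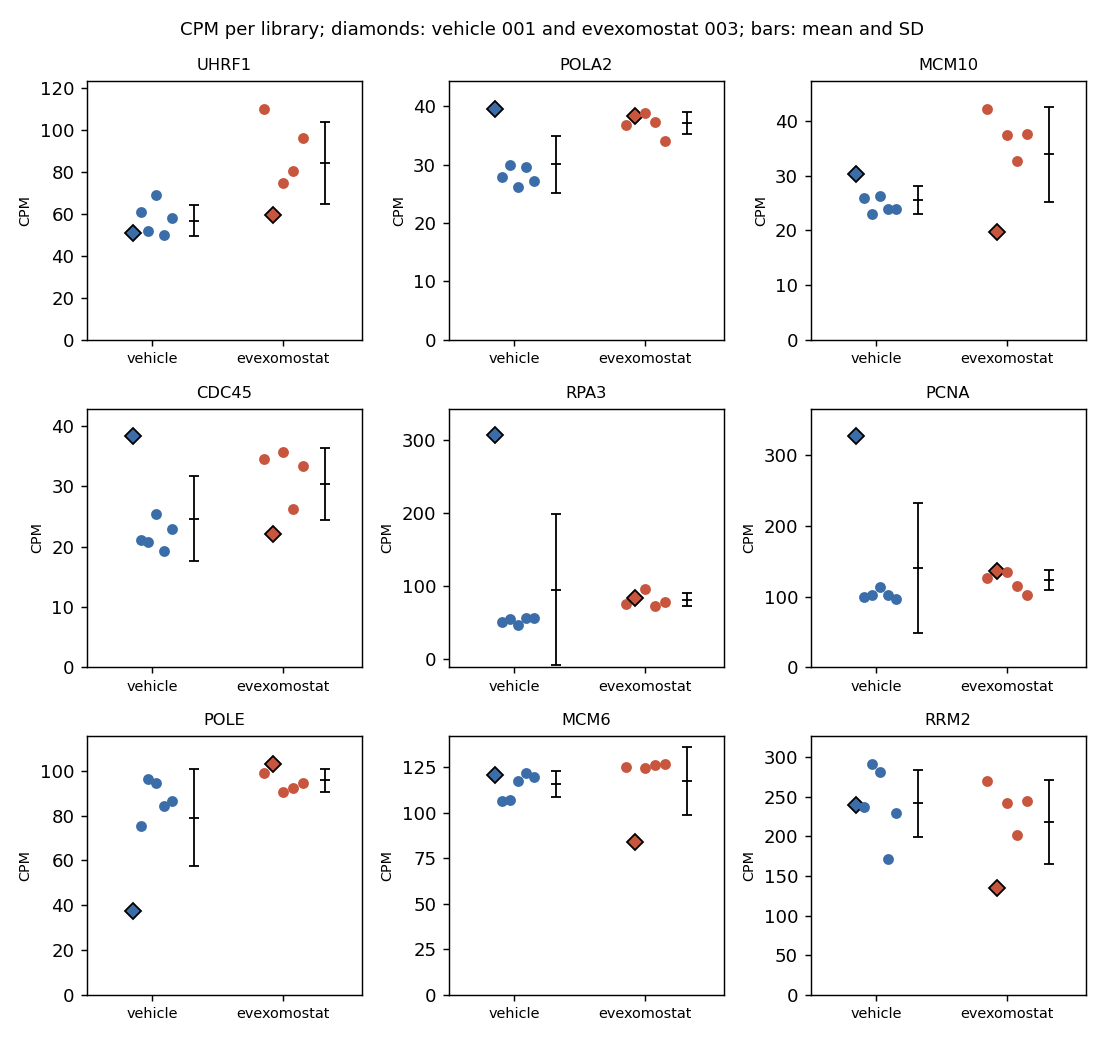
CPM of 9 genes in each library (points; diamonds mark vehicle 001 and evexomostat 003), with group mean and SD as bars (n = 6 vehicle, n = 5 evexomostat); each vertical axis has its own scale. RPA3 and PCNA are at 307 and 327 CPM in vehicle 001, while MCM6 and RRM2 are at 84.2 and 135 CPM in evexomostat 003.

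The clamp, loader and strand processing role had a median log2 fold change of -0.07, with 4 of 10 above 0. Under scaling by library totals only it was 0.03, with 6 above 0, against a median of 0.06 over all tested genes. Without vehicle replicate 001 the median of the role was 0.15, with 7 of 10 above 0. RPA3, the smallest subunit of the single-strand binding protein RPA, was at 307, 49.7, 54.7, 46.2, 55.9 and 55.3 CPM under vehicle and 75.5, 82.9, 96.0, 72.7 and 78.0 CPM under evexomostat. Vehicle replicate 001 was 5.61 times the median of the other vehicle tumours, which all lay below every evexomostat tumour. The log2 fold change of RPA3 was -0.22 (standard error 0.47, adjusted p 0.896 by edgeR) with all tumours and 0.64 (standard error 0.10, adjusted p 0.00903 by edgeR) without vehicle replicate 001, the smallest p-value of the 41 genes there. RPA3 exons overlap UMAD1 on the opposite strand in GENCODE release 29, and without strand the reads of both cannot be told apart. RPA2, the middle subunit and the gene of this role with the smallest p-value, was at 127, 86.7, 102, 93.9, 88.6 and 78.6 CPM under vehicle and 111, 93.2, 117, 114 and 111 CPM under evexomostat, with a log2 fold change of 0.19 (standard error 0.13, adjusted p 0.615 by edgeR). RPA1, the large subunit and the most abundant of the role by mean RPM, was at 180.4, 218, 164, 167, 131 and 166 CPM under vehicle and 159, 118, 175, 177 and 158 CPM under evexomostat, with a log2 fold change of -0.12 (standard error 0.15, adjusted p 0.797 by edgeR). The subunits of RPA therefore had differing signs with all tumours, and none of these passed. PCNA, the sliding clamp, was at 327, 99.7, 102, 113, 102 and 97.0 CPM under vehicle and 126, 136, 135, 115 and 103 CPM under evexomostat. Vehicle replicate 001 was 3.20 times the median of the other vehicle tumours, and the log2 fold change was -0.19 (standard error 0.31, adjusted p 0.855 by edgeR) with it and 0.26 (standard error 0.10, adjusted p 0.125 by edgeR) without it. Of the clamp loader subunits, RFC4 had a log2 fold change of 0.16 (standard error 0.16, adjusted p 0.746 by edgeR) with all tumours and 0.35 (standard error 0.08, adjusted p 0.0464 by edgeR) without both libraries. Those libraries hold the highest vehicle and the lowest treated value of RFC4, so leaving them out raises its fold change by construction. RFC2, RFC3 and RFC5 had values of 0.06, 0.02 and 0.16 without both libraries, with edgeR adjusted p-values of 0.804, 0.956 and 0.440. FEN1, the flap nuclease, and LIG1, the ligase that seals Okazaki fragments, had log2 fold changes of -0.07 and 0.07 with all tumours and 0.25 and 0.03 without both libraries.

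The genes of deoxynucleotide supply had a median log2 fold change of -0.14, with 2 of 5 above 0, the lowest median of the 7 roles. Without vehicle replicate 001 the median was 0.06, with 3 of 5 above 0. RRM2, the regulated small subunit of ribonucleotide reductase and the most abundant of the role, was at 239, 236, 291, 281, 171 and 229 CPM under vehicle and 269.7, 135, 241, 202 and 244 CPM under evexomostat. Evexomostat replicate 003 was the lowest of all 11 tumours, the other treated tumours lay inside the vehicle range, and the log2 fold change was -0.14 (standard error 0.19, adjusted p 0.809 by edgeR). Without evexomostat replicate 003 it was -0.01 (adjusted p 0.989 by edgeR). RRM1, the large subunit, was at 197, 122, 124, 123, 111 and 139 CPM under vehicle and 123, 80.5, 117, 121 and 121 CPM under evexomostat, with a log2 fold change of -0.27 (standard error 0.17, adjusted p 0.537 by edgeR) and, without both libraries, -0.04 (standard error 0.08, adjusted p 0.793 by edgeR). The RRM2 to RRM1 ratio per kb was 1.06 in vehicle replicate 001, 1.34 to 2.04 in the other vehicle tumours and 1.45 to 1.90 in the evexomostat tumours. TYMS, which makes thymidylate, was at 15.9, 22.7, 20.9, 22.3, 19.9 and 22.1 CPM under vehicle and 26.5, 12.0, 24.1, 24.9 and 24.4 CPM under evexomostat, and evexomostat replicate 003 had 0.488 times the median of the other treated tumours. Its log2 fold change was 0.12 (standard error 0.19, adjusted p 0.855 by edgeR). TK1, the salvage kinase for thymidine, and DUT, which removes dUTP, had log2 fold changes of 0.01 and -0.15 with all tumours (edgeR adjusted p 0.986 and 0.851).

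UHRF1, the reader of hemimethylated DNA that brings DNMT1 to newly copied strands, was grouped with the histone chaperones and had the smallest p-value of all 41 genes. It was at 50.8, 60.6, 51.6, 69.0, 49.7 and 58.1 CPM under vehicle and 110.0, 59.5, 74.4, 80.5 and 96.1 CPM under evexomostat. In 4 of the 5 evexomostat tumours UHRF1 was above every vehicle tumour, and replicate 003 was inside the vehicle range. Its log2 fold change was 0.57 (standard error 0.16, adjusted p 0.128 by edgeR), with a 95% interval from 0.23 to 0.91, and it kept that sign in all 21 alternatives. UHRF1 passed with DESeq2 (adjusted p 0.0375), the 1 member that did, against 3.9% of genes tested, and with limma-voom sample quality weights (adjusted p 0.0313), where 6 members passed against 6.36%. DESeq2 gave no p-value for RPA3. In simulated data 17.6% of the DESeq2 calls were false, against 3.57% of those of edgeR with TMM scaling. The simulated counts were drawn with the spread that edgeR estimated for each gene and with no departing library. These shares need not hold in the tumours. On the 8 tumours whose replicate numbers occur in both groups, none of the 41 passed with the number as a block (0.645% of all genes) and 2 passed without it (4.42%). On those 8 tumours the log2 fold change of UHRF1 was lower, 0.36 with the block (adjusted p 0.244 by edgeR) and 0.37 without it (adjusted p 0.167 by edgeR). Those 8 leave out evexomostat replicate 002, the highest UHRF1 value, and keep evexomostat replicate 003, the lowest treated value. Without evexomostat replicate 002 alone the log2 fold change of UHRF1 was 0.45. The edgeR adjusted p of UHRF1 was 0.0635 without vehicle replicate 001, 0.0834 without evexomostat replicate 003 and 0.0328 without both. CHAF1A and CHAF1B, subunits of the complex that places histones on new DNA, did not pass. CHAF1B, the more abundant by mean RPM, was at 87.7, 70.2, 84.2, 79.7, 72.4 and 97.7 CPM under vehicle and 67.7, 72.5, 82.6, 77.5 and 72.2 CPM under evexomostat, with a log2 fold change of -0.14 (standard error 0.12, adjusted p 0.675 by edgeR). CHAF1A was at 56.1 ± 8.86 (SD, n = 6) and 56.5 ± 6.93 CPM (SD, n = 5), with a log2 fold change of 0.01 and an interval from -0.28 to 0.31. Whether UHRF1 differed from these partners in its response was not tested.

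**Figure D3:**
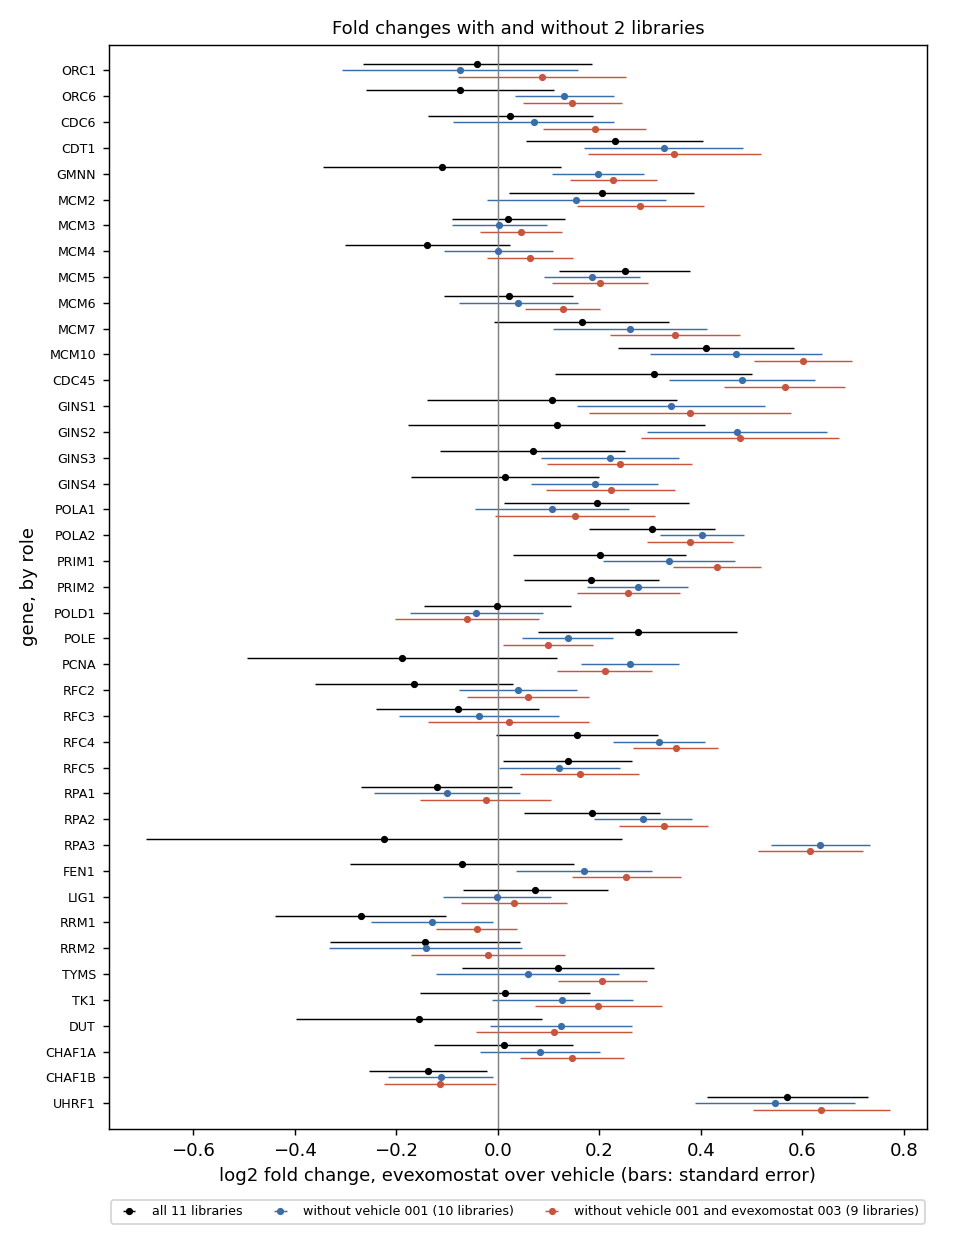
Log2 fold change (evexomostat over vehicle, horizontal axis) with its standard error for each gene, from all 11 libraries, without vehicle 001, and without vehicle 001 and evexomostat 003. The median moves from 0.02 to 0.14 and 0.20, and RPA3 moves from -0.22 to 0.64 and 0.62.

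The departure of vehicle replicate 001 moved with transcript length. Across the 41 genes, which are not independent replicates and share that library, its log2 ratio to the median of the other vehicle tumours had a Spearman correlation of -0.56 with merged exon length (1359 bases for GMNN to 7840 for POLE). In the other vehicle libraries the same correlation ran from -0.12 to 0.27, in the evexomostat libraries against their own group from -0.30 to 0.17, and over 14140 tested genes with a length it was -0.36 in vehicle replicate 001. Over those genes evexomostat replicates 005 and 004 had correlations of 0.31 and -0.23, so a correlation with length was not limited to vehicle replicate 001. The slope of the log2 ratio per doubling of length was much steeper in vehicle replicate 001, at -0.35. It was 0.08 in evexomostat replicate 005 and -0.05 in evexomostat replicate 004. Among the 10 genes with the shortest merged exons vehicle replicate 001 was the highest vehicle library in 9, with a median ratio of 1.78, and among the 10 longest it was the highest in 3, with a median ratio of 1.09. The ratio was highest in RPA3 (5.61) and lowest in POLE (0.435). The 100 most abundant genes took 23.9% of all counts there and 16.2% to 17.6% in the rest of the vehicle group, and its summed leukocyte markers were the lowest, at 35.6 RPM. The part of these values in the 30 genes that lay above the median of the other vehicle tumours was not tested.

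Evexomostat replicate 003 departed mostly downward in these genes. The matching shares over all tested genes are not given here, so the counts below cannot be read as particular to this set. It lay below the median of the other treated tumours in 35 of 41 genes, with a median ratio of 0.829 and a lowest ratio of 0.437 in ORC1, and its Spearman correlation with length over the 41 genes was -0.12. Over the 14140 tested genes with a length its correlation was -0.18, of the same sign as in vehicle replicate 001. The slope there was -0.09 per doubling, the steepest after vehicle replicate 001. It was lowest of its group in 5 of 5 licensing factors, 6 of 6 helicase core genes, 5 of 6 helicase activators, 8 of 10 clamp, loader and strand processing genes and 4 of 5 genes of deoxynucleotide supply, and in 2 of 6 polymerase and primase genes. The mean log2 CPM of the 41 genes was 5.72 in this library, against 6.02 to 6.12 in the other evexomostat tumours and 5.75 to 5.97 in the vehicle tumours other than replicate 001, which was at 6.26. The mean of 24 mitosis genes was also lowest of the treated group in this tumour, at 6.25 against 6.63 to 6.81. Its library was the smallest of the 11, at 22808033 counts, and had the highest TMM factor, at 1.08. The parts of depth and of scaling in these values were not tested.

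**Figure D4:**
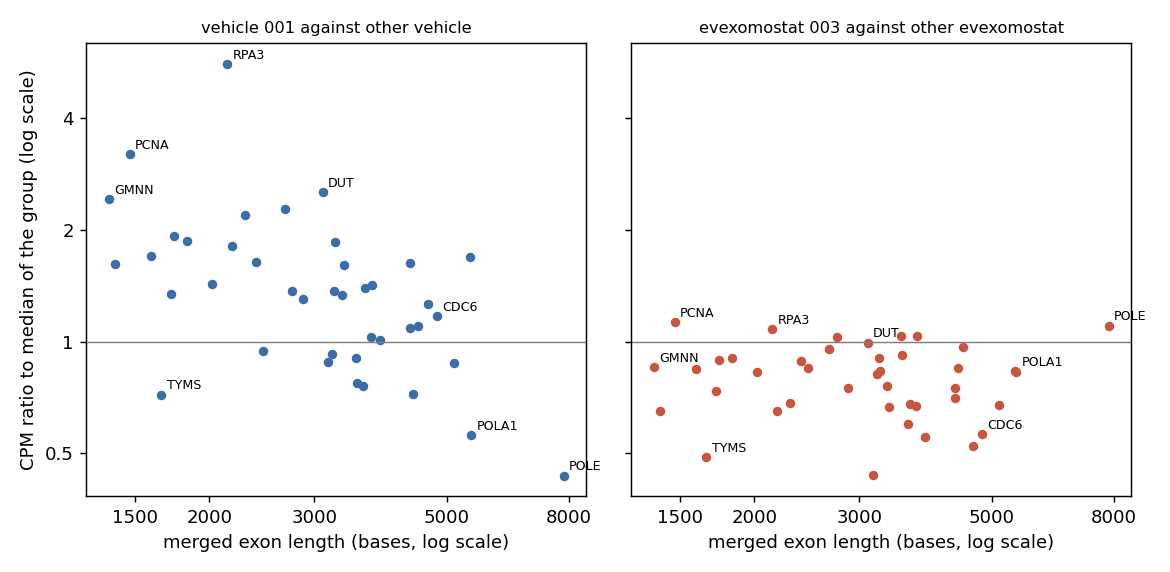
Ratio of CPM in vehicle 001 to the median of the other 5 vehicle libraries (left) and in evexomostat 003 to the median of the other 4 evexomostat libraries (right) against merged exon length, both on log axes, with 1 point per gene. The Spearman correlation over 41 genes is -0.56 on the left and -0.12 on the right.

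**Figure D5:**
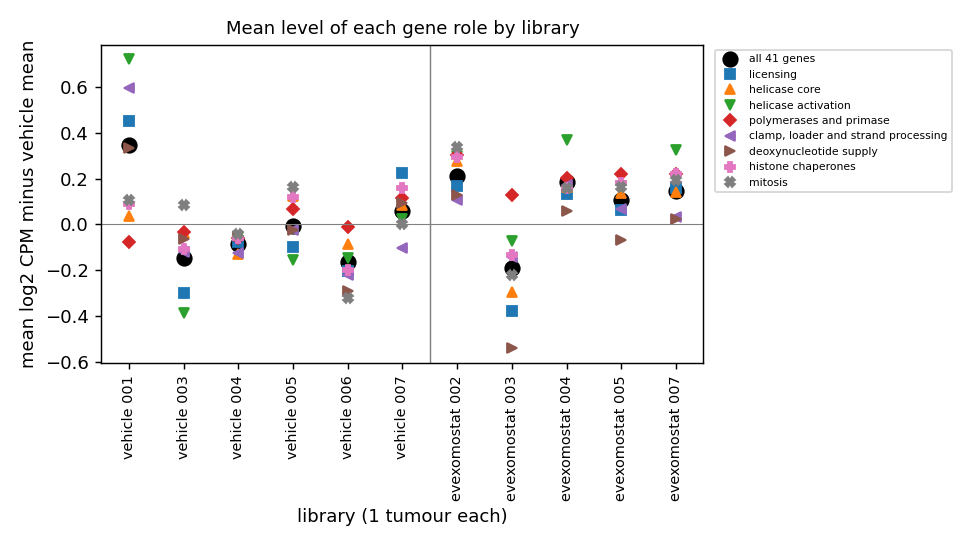
Mean log2 CPM of each role, of all 41 genes and of 24 mitosis genes in each library, relative to the mean of the 6 vehicle libraries. Helicase activation is highest in vehicle 001, and deoxynucleotide supply and licensing are lowest in evexomostat 003.

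The wider pathway held 64 further genes, of which 1 passed with all tumours, CHTF18, and 4 had an unadjusted p under 0.05, against 0.606% and 13.4% of all tested genes. CHTF18, a subunit of an alternative clamp loader, was at 43.5, 53.1, 60.8, 74.1, 60.5 and 64.5 CPM under vehicle and 92.3, 119, 87.5, 88.9 and 97.6 CPM under evexomostat. The groups did not overlap, as in 2.97% of all tested genes, and CHTF18 rose by a log2 fold change of 0.71 (standard error 0.14, adjusted p 0.0477 by edgeR). The call was close to the threshold: it held in 2 of 11 comparisons that left out a single library, with edgeR adjusted p-values from 0.0129 to 0.148. Evexomostat replicate 003, the lowest treated tumour for most of the 41 genes, was the highest for CHTF18. Of 12 further licensing and firing genes none passed and RECQL4, a helicase of origin firing, had the smallest p-value, with a log2 fold change of 0.42 (edgeR adjusted p 0.142) and groups that did not overlap. Of 24 further nucleotide genes none passed, 12 were above 0, and SLC29A1, a nucleoside transporter, had the smallest p-value (log2 fold change 0.46, edgeR adjusted p 0.291). Of 9 genes of chromatin behind the fork none passed, and NASP, a histone H1 and H3 chaperone, had the smallest p-value (log2 fold change 0.18, edgeR adjusted p 0.489).

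Neighbouring cell cycle lists were read beside the set. Of 24 mitosis genes none passed, 18 were above 0 and the median log2 fold change was 0.08. Of 8 E2F family genes none passed, 1 had an unadjusted p under 0.05, 3 were above 0 and the median was -0.04. No test of a difference between these lists and the 41 replication genes was made. In the authors' deposited table none of the 41 genes had an adjusted p under 0.05, against 1.5% of the genes tested here. UHRF1 was nearest in the authors' deposited table, with a log2 fold change of 0.66 and an adjusted p of 0.0534. That fold change is not on the same scaling as the TMM value of 0.57. The fit here with library totals only gave 0.656 for UHRF1 and 0.502 for MCM10, and the authors' values round to the same figures.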

How the data were processed

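RNA-seq libraries of 11 xenograft tumours were analysed, 6 vehicle and 5 evexomostat, grouped by their labels. The deposited counts are raw read counts per gene symbol, and the authors' RPM values are those counts relative to the total of the library. The submitters' processing notes list bcl2fastq 2.17, STAR 2.7.5c, featureCounts, Subread and edgeR, and builds GRCh37 and hg19. Annotation, strand setting and handling of mouse reads are not given in the sources used here. The authors' deposited comparison table holds log2 fold changes, p-values with adjusted values, and group means of RPM (signal), per the file headers, and its test is not stated.

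Counts were fitted with edgeR 4.0.16 (TMM scaling, filterByExpr with a minimum count of 10 and a minimum total of 15, quasi-likelihood test, Benjamini-Hochberg adjustment over 16653 genes, threshold 0.05), in R 4.3.3. Alternatives used DESeq2 1.42.0, limma 3.58.1, other scalings, no count filter, a replicate block and each library left out in turn. The scripts were tested on simulated data with 200 changed genes. There edgeR with TMM scaling recovered 47% of genes set to a log2 fold change of 1 in either direction, and 88% at 2. Smaller changes could therefore be missed. Merged exon lengths came from GENCODE release 29. Genes named in each role were the one with the smallest p-value and the one with the highest mean RPM, with further genes added after their values were seen. The members and lists were chosen with earlier results of these data known. Intervals are at 95% confidence. Exons of 18 members overlap another gene, and 8 have named pseudogenes (PCNA, RFC3, RFC5, RPA2, FEN1, RRM2, TYMS and DUT), so their counts are less certain.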

Additional observations from a re-analysis of the deposited data

Results flagged for a closer look

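Dixon's test at 95% marks a library whose gap to the nearest of its group is large beside the range of the group. It was applied to each of the 41 genes in both groups, 82 groups in all, and it marked 27 in 24 genes. Chance would mark about 4.1 of 82 independent groups, but these genes share the same libraries, so 4.1 is no fair comparison. The share marked over all tested genes is not given here, so the count cannot be read as particular to these genes. All 27 were in vehicle replicate 001 (17) or evexomostat replicate 003 (10), and none in the other 9 libraries. Above the rest of the vehicle group, vehicle replicate 001 had ORC6 at 68.6 CPM (others 32.1 to 40.5), GMNN at 70.8 CPM (others 26.7 to 31.2), MCM4 at 526 CPM (others 298 to 378) and CDC45 at 38.3 CPM (others 19.2 to 25.4). Also so placed were GINS2 at 54.0 CPM (others 14.0 to 24.6), GINS4 at 35.1 CPM (others 15.9 to 23.0), POLA2 at 39.6 CPM (others 26.2 to 30.0) and PRIM1 at 39.8 CPM (others 23.9 to 27.5). Also so placed were PRIM2 at 21.5 CPM (others 14.7 to 16.9), PCNA at 327 CPM (others 97.0 to 113), RFC2 at 122 CPM (others 53.8 to 76.7) and RFC4 at 80.6 CPM (others 42.4 to 53.7). Also so placed were RPA3 at 307 CPM (others 46.2 to 55.9), FEN1 at 226 CPM (others 93.5 to 129), RRM1 at 197 CPM (others 111 to 139) and DUT at 162 CPM (others 61.3 to 95.9). Below the rest it had POLE at 37.6 CPM (others 75.4 to 96.5). Below the rest of the evexomostat group, evexomostat replicate 003 had ORC1 at 19.9 CPM (others 42.3 to 48.6), CDC6 at 25.6 CPM (others 44.5 to 46.1), MCM3 at 111 CPM (others 132 to 139) and MCM4 at 262 CPM (others 340.3 to 352). Also so placed were MCM6 at 84.2 CPM (others 125 to 127), GINS1 at 26.1 CPM (others 30.7 to 31.8), PRIM1 at 22.1 CPM (others 32.2 to 36.4) and RPA2 at 93.2 CPM (others 111 to 117). Also so placed were RRM1 at 80.5 CPM (others 117 to 123) and TYMS at 12.0 CPM (others 24.1 to 26.5). MCM4, PRIM1 and RRM1 were marked in both libraries, high in vehicle replicate 001 and low in evexomostat replicate 003. The cause was not tested.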

How the results depend on the processing

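The number of the 41 genes past the threshold was 0 in edgeR's test with all 11 libraries, 1 with DESeq2, 6 with limma-voom sample quality weights and 7 without vehicle replicate 001 and evexomostat replicate 003 together, an alternative chosen after seeing the data. Over all genes tested, 0.606% passed with all 11 libraries, 3.9% with DESeq2, 6.36% with quality weights and 3.9% without both libraries. Leaving out 1 library at a time gave 0 to 2 of the 41. The highest count came without vehicle replicate 001, where 5.22% of all genes tested passed. Among the 64 wider pathway genes the count was 1, against 0 with library totals only, 2 with DESeq2, 2 with quality weights, 0 without a count filter, 3 without both libraries, and 0 to 4 with 1 library left out. These counts are to be read beside the same shares of all genes tested. With library totals only, 62 of 16653 genes passed, and no share is given for the fit without a count filter. The 4 replicate numbers shared by both groups (003, 004, 005 and 007) did not pair the tumours: the correlations were -0.27, 0.07, 0.05 and -0.10, and 0 of 4 vehicle libraries correlated best with their own number. With the replicate block, on 8 libraries, 0 of the 41 and 0 of the 64 genes passed, against 2 of the 41 (POLA2 and RPA3) in the same 8 without it, and 107 against 733 of all genes.

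Of the 22 genes followed singly, 15 kept their direction in all 21 alternatives. Log2 fold changes of the other sign were as follows. Upper quartile scaling gave ORC1 0.0055 and POLD1 0.0512. Library totals only gave ORC1 0.0479, GMNN 0.0127 and POLD1 0.0934. Limma-voom gave GMNN 0.0035, POLD1 0.0232 and RPA3 0.21, and with quality weights ORC1 0.11, GMNN 0.20, MCM4 0.0503, POLD1 0.0069, PCNA 0.17 and RPA3 0.59. No count filter gave POLD1 0.0031. The replicate block gave GMNN 0.17, PCNA 0.23, RPA3 0.67 and TYMS -0.10, and the same 8 libraries without it GMNN 0.17, PCNA 0.24, RPA3 0.67 and TYMS -0.0474. Those 8 libraries leave out vehicle replicates 001 and 006 and evexomostat replicate 002, and the signs were the same with and without the block. Leaving out vehicle replicate 001 alone gave GMNN 0.20, PCNA 0.26 and RPA3 0.64, while TYMS stayed above 0 at 0.06. Without both libraries ORC1 was at 0.0863, GMNN at 0.23, MCM4 at 0.0632, PCNA at 0.21 and RPA3 at 0.62. With 1 library left out, ORC1 ran from -0.12 to 0.13, GMNN from -0.185 to 0.20, MCM4 from -0.19 to 0.0013, POLD1 from -0.0539 to 0.10, PCNA from -0.28 to 0.26 and RPA3 from -0.36 to 0.64. The cause was not tested. As to depth, each of the 41 genes had at least 297 counts in every library.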
